A study of Mus musculus with 2 samples.

Results

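The proteasome is the large protease that destroys proteins tagged with ubiquitin. Its 20S core is a barrel of alpha and beta rings with the cutting sites inside, and its 19S cap recognises ubiquitin chains, unfolds the substrate with a ring of ATPases and feeds it into the barrel. In B cells it releases NF-kB by removing its inhibitors and makes peptides for MHC class I, and plasma cells, which secrete antibody in bulk, are known to be sensitive to its inhibition. The genes of its constitutive form were chosen by symbol alone, as those that start with Psma, Psmb, Psmc or Psmd and a digit, without the interferon-inducible Psmb8, Psmb9 and Psmb10. That gave 37 of the 18193 genes with a probe set of their own. By role they were 7 alpha and 7 beta ring genes, 9 genes of the 19S base and 8 of the 19S lid, 31 constitutive subunits in all. The rule also took in 3 assembly chaperones (Psmd5, Psmd9 and Psmd10), the testis form Psma8, the thymus form Psmb11, and Psmc3ip, which passes by its spelling but encodes a cofactor of meiotic recombination and no proteasome protein.

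Expression was measured on 2 Affymetrix arrays of B cells from male C57 mice, 1 titled mir155KO and 1 titled mir155WT, both after cycloheximide, a blocker of translation elongation, at 100 ug/ml for 8 min. The series asks what loss of miR-155, a microRNA induced on B cell activation, does to the transcriptome of activated B cells. The growth protocol instead describes haematopoietic progenitors kept 6 days in G-CSF and stem cell factor, and neither pooling of animals nor the knockout allele is described. The source names give each array the opposite genotype. Here the arrays are called KO-titled and WT-titled, all differences are KO-titled minus WT-titled on the log2 scale, and every sign turns over if the source names are right.

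Each level is a single reading of log2 intensity with no replicate, so no difference could be tested and none can be set against a spread between animals. A gene counted as expressed when the mean of both arrays reached 6.71, the array-wide median without control probe sets, and 10717 genes did. Mir155hg, the host transcript of miR-155, read 10.88 on the KO-titled and 6.63 on the WT-titled array, which goes against the titles. Whether that probe set reads the part of the gene removed in the knockout was not determined. Of the B cell markers measured, 11 of 11 were expressed (median difference 0.18, from Blnk at -0.070 to Blk at 0.50), against 3 of 12 neutrophil markers (-0.053, from Camp at -0.070 to Lcn2 at -0.052). The expressed neutrophil markers were Prtn3 (mean level 6.77), Camp (6.84) and Lcn2 (9.44). Mpo, Elane, Ctsg, Ltf, Ngp, S100a8, S100a9, Csf3r and Mmp8 were below the level for expression. Macrophage markers were expressed for 8 of 10 (median difference -0.22, from Tyrobp at -0.39 to Ccr2 at 0.056). Dendritic cell markers were expressed for 4 of 8 (-0.29, from Zbtb46 at -0.44 to Batf3 at 0.37) and T cell markers for 5 of 8 (-0.061, from Cd3d at -0.12 to Cd3e at 0.25). The cut was met by 10717 of all 18193 genes, so a marker counted as expressed does not by itself show that its cell type was present. The part of these markers in the values below was not tested. In bulk RNA, fewer cells of a type and less RNA per cell cannot be told apart.

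The microRNA that separates the genotypes is shown first, with its seed, bases 2 to 8, in capitals. It is the strand that carries most of the known targeting, from GRCm38.p6 chr16:84714143-84714165 on the plus strand (RefSeq).
mmu-miR-155-5p: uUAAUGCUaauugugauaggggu

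Promoter stretches are shown next because proteasome genes are known for shared promoter elements. RefSeq's table of 300-base promoters (250 bases before to 50 after the start, GRCm38.p6) held 30 of the 37 genes. The first motif was the core of the antioxidant response element, TGACNNNGC on either strand, which NRF1 (Nfe2l1) and NRF2 (Nfe2l2) are known to use. It was found for 5 of the 30 genes (16.7%), against 12.4% of all 32851 promoters and 14.3% of those of expressed genes. Capitals mark the match on the gene's strand or its complement, and the gene strand is given after the position. Psmb5 and Psmb6 encode catalytic subunits, Psmc6 an ATPase, Psmd12 a lid subunit and Psmd9 an assembly chaperone.
Psmb5, chr14:54618014-54618062, minus: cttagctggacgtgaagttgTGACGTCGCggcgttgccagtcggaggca
Psmb6, chr11:70525338-70525366, plus: ctaaagagagTGACGGAGCgctttacgac
Psmc6, chr14:45329577-45329625, plus: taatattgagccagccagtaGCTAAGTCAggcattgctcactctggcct
Psmd12, chr11:107479278-107479309, plus: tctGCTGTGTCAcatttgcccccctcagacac
Psmd9, chr5:123228139-123228187, plus: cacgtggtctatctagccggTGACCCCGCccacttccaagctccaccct

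The second motif, CCGGAAG on either strand, is an ETS factor site of the kind common in promoters of housekeeping genes. It was found for 11 of the 30 genes (36.7%), against 8.86% of all promoters and 18.1% of those of expressed genes. Of the lid genes with a promoter in the table, Psmd6, Psmd11, Psmd12 and Psmd13 held it, and of the base genes Psmc1, Psmc2, Psmc6, Psmd2 and Psmd4. Psma6 and Psmc3ip completed the group. The Psmd matches are printed with 10 bases on each side.
Psmd2, chr16:20651616-20651642, plus: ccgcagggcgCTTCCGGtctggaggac
Psmd4, chr3:95042723-95042749, minus: tacagctgttCCGGAAGctgctgcgaa
Psmd6, chr14:14120974-14121000, minus: agagacgcgaCCGGAAGtcagactggc
Psmd11, chr11:80428594-80428620, plus: gagggcgggtCTTCCGGgtgtgtgttt
Psmd12, chr11:107479501-107479527, plus: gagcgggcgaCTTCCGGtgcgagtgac
Psmd13, chr7:140882378-140882404, plus: gcccgcggtgCCGGAAGtgagcgagca
The CCAAT box, searched as CCAAT on either strand, was found for 13 of the 30 genes (43.3%), against 37.4% of all promoters. CCGGAAG contains neither of the other motifs. These matches describe the letters in the windows and nothing about binding in these cells.

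The constitutive proteasome genes read almost the same on both arrays. Of the 37 genes 35 were expressed, with differences from -0.099 (Psmd9) to 0.29 (Psmc3ip) and a median of -0.0034. Of these, 17 were higher and 18 lower on the KO-titled array, while 56.9% of all expressed genes were higher and their median was 0.026. With a loess curve of difference on level subtracted, 11 were higher and 24 lower (31.4% higher, against 49.9% of all expressed genes). A difference of 0.25 (1.19-fold) or more upward was reached by 2 genes, Psmc3ip and Psmc4, against 7.6% of expressed genes, and none was lower by as much, against 6.4%. None differed by 0.5 (1.41-fold) in either direction, as 1.99% of expressed genes did. Within 0.1 of 0, a limit chosen after the values were seen, lay 32 of 35 genes, against 49.1% of expressed genes.

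The proteasome genes give strong signals, and the strongest signals, above level 13, differed least between these arrays. All 31 ring, base and lid subunits had mean levels from 10.81 to 14.05, near the top of a scale that ends at 15.4. Over the 2566 genes at or above 10.81, 58% lay within 0.1 of 0, 59.5% were higher, 4.13% were higher by 0.25 or more, 4.99% lower by as much, and 1.33% past 0.5 in either direction. Of the 31 subunits 29 lay within 0.1 and 16 were higher. The SD of the differences was 0.063 over the 31 subunits, 0.16 over these 2566 genes and 0.19 over all expressed genes. Between levels 13 and 14, where 14 of the proteasome genes lie, the central 95% of 253 genes ran from -0.21 to 0.22, and between 8 and 9 that of 1825 genes ran from -0.38 to 0.42. Between levels 12 and 13, where 12 of the proteasome genes lie, the range was not narrow: it ran from -0.43 to 0.29 over 672 genes, with an SD of 0.18 against 0.19 between levels 9 and 10. Whether the strongest signals are compressed on these arrays was not tested.

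**Figure D1:**
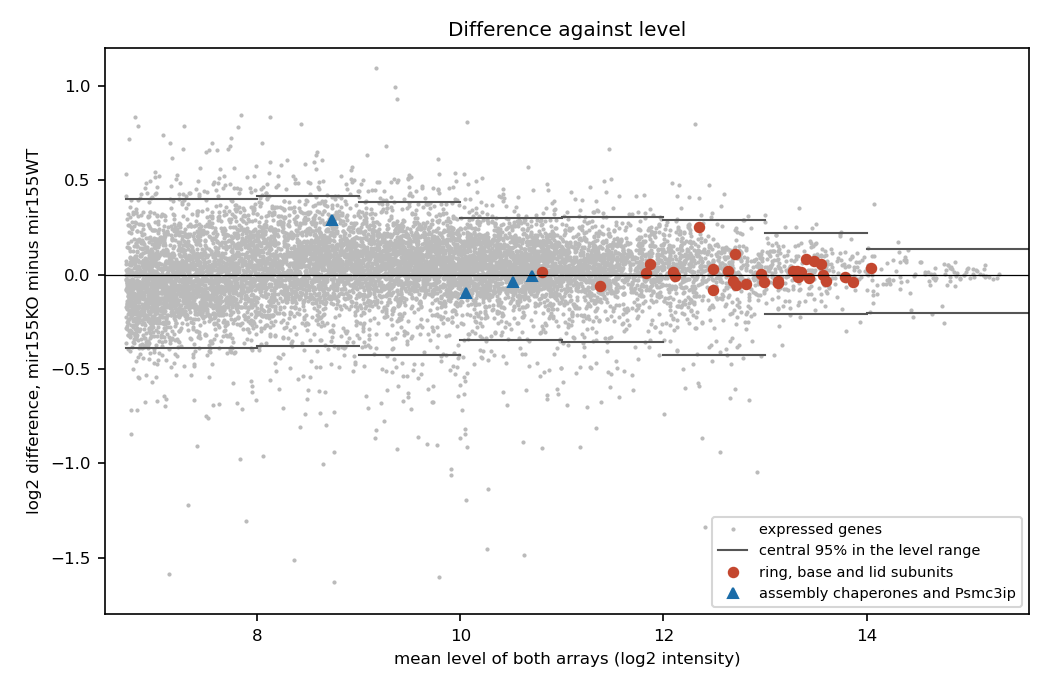
Log2 difference (KO-titled minus WT-titled) against mean log2 intensity of both arrays for 10717 expressed genes, 1 point a gene, with horizontal lines for the central 95% in each level range. The 31 ring, base and lid subunits sit at levels of 10.81 or more, and Mir155hg, at 4.25, lies above the plotted range.

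The alpha rings form the gate of the barrel. Their 7 genes had differences from -0.032 to 0.085 and a median of 0.022, with 4 higher and 3 lower. Psma5, for the alpha5 subunit, read 13.45 on the KO-titled and 13.36 on the WT-titled array, a difference of 0.085. Psma6, for alpha1, read 13.58 and 13.52 (0.055), and Psma2, for alpha2, read 14.07 and 14.03 (0.035). These were the highest differences of the ring and amount to at most 1.06-fold. Psma7, for alpha4, read 13.29 and 13.27 (0.022). Psma3, for alpha7, read 13.78 and 13.79 (-0.011). Psma4, for alpha3, whose tail helps close the gate, read 13.42 and 13.44 (-0.017). Psma1, for alpha6, read 13.11 and 13.14 (-0.032), the lowest of the ring.

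The beta rings hold the cutting sites. Of their 7 genes 6 were lower on the KO-titled array, with differences from -0.052 to 0.0017 and a median of -0.040, an SD of 0.019. Of all expressed genes 4512 of 10717 were lower. Psmb5, the chymotrypsin-like beta5 subunit and main target of bortezomib, read 12.97 on the KO-titled and 13.01 on the WT-titled array (-0.041). Psmb7, the trypsin-like beta2 subunit, read 13.58 and 13.61 (-0.035), and Psmb6, the caspase-like beta1 subunit, read 12.96 on both (0.0017). The non-catalytic genes were as close. Psmb1, for beta6, read 13.32 and 13.33 (-0.014), and Psmb2, for beta4, read 12.69 and 12.74 (-0.052). Psmb3, for beta3, read 13.10 and 13.15 (-0.042), and Psmb4, for beta7, read 13.84 and 13.88 (-0.040). Each difference is smaller than 0.084, the median disagreement between probe sets of a gene described below. That median covers expressed genes of all levels and was not computed for genes as bright as these. The shared sign depended on the setting. With the mean of all probe sets, Psmb4 turned to 0.019 and Psmb1 to 0.056, which gave 3 higher and 4 lower. Psmb6 turned to -0.011 with quantile normalization and to -0.020 with the loess curve, so that all 7 were lower in both.

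**Figure D2:**
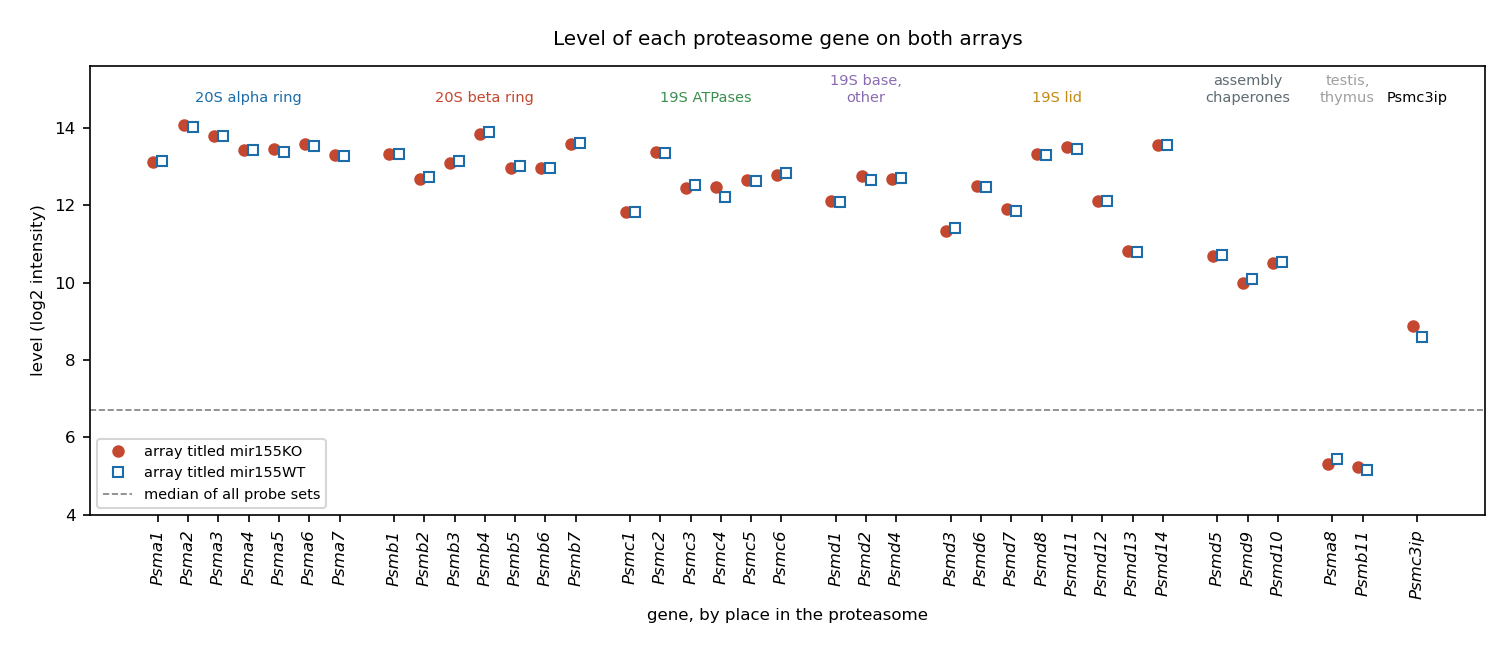
Log2 intensity of the 37 genes on the KO-titled array (filled circles) and the WT-titled array (open squares), grouped by place in the proteasome, with the median of all probe sets dashed. The symbols of a gene nearly coincide, with Psmc4 (12.47 and 12.22) and Psmc3ip (8.88 and 8.59) the widest pairs, and Psma8 and Psmb11 lie under the dashed line; heights of different genes are not comparable.

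The 6 ATPases of the 19S base unfold the substrate. They ranged from -0.080 to 0.25 with a median of 0.013. Psmc4, which encodes RPT3, read 12.47 on the KO-titled and 12.22 on the WT-titled array, a difference of 0.25 (1.19-fold). It was the only constitutive subunit to reach the limit of 0.25, and a second probe set of the gene read 12.05 and 11.99 (0.062). Its value was 0.16 with the mean of both sets. The others stayed nearer to 0. Psmc5, for RPT6, read 12.65 and 12.63 (0.018), Psmc2, for RPT1, read 13.37 and 13.35 (0.015), and Psmc1, for RPT2, read 11.84 and 11.83 (0.011). Psmc6, for RPT4, read 12.79 and 12.84 (-0.051), with other sets at 0.081 and 0.16, so its direction depended on the set. Psmc3, for RPT5, read 12.44 and 12.52 (-0.080) and was the lowest of all 31 subunits.

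The other base genes are scaffolds and a ubiquitin receptor. Psmd2, for the scaffold RPN1, which docks shuttle proteins, read 12.76 on the KO-titled and 12.65 on the WT-titled array (0.11, 1.08-fold), the highest difference after Psmc4 among the subunits. A dim set of the same gene, below the level for expression, differed by -0.094. Psmd1, for the scaffold RPN2, read 12.10 and 12.09 (0.014). Psmd4, for the ubiquitin receptor RPN10, read 12.67 and 12.70 (-0.033).

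The lid removes ubiquitin before degradation. Its 8 genes had differences from -0.062 to 0.070 and a median of 0.016, with 5 higher and 3 lower. Psmd14, for the deubiquitinase RPN11, read 13.57 on both arrays (-0.0034), and its partner Psmd7, for RPN8, read 11.90 and 11.84 (0.057). The remaining lid genes encode scaffold subunits with a PCI domain. Psmd11, for RPN6, which clamps the cap to the core, read 13.51 and 13.44 (0.070), and Psmd3, for RPN3, read 11.34 and 11.41 (-0.062). Psmd6, for RPN7, read 12.50 and 12.47 (0.029), and Psmd8, for RPN12, read 13.32 and 13.30 (0.020). These pairs are closer than 1.05-fold. Psmd13, for RPN9, read 10.81 and 10.80 (0.012), and Psmd12, for RPN5, read 12.11 and 12.12 (-0.0084).

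Genes that share the naming but are not constitutive subunits came next. The chaperones of base assembly were all slightly lower: Psmd9, for p27, at 10.002 and 10.102 (-0.099), Psmd10, for gankyrin, at 10.50 and 10.54 (-0.039), and Psmd5, for S5b, at 10.70 and 10.71 (-0.0057). Among all 10717 expressed genes 4512 were lower. All 3 sets of Psmd9 were lower, with differences from -0.16 to -0.090, but those besides the chosen set were dim, at mean levels of 6.95 and 7.11. Psma8, a subunit of the testis proteasome, read 5.32 and 5.43, and Psmb11, the catalytic subunit of the thymus cortex, read 5.24 and 5.16, both below the level for expression, so no change is read from them. Psmc3ip read 8.88 on the KO-titled and 8.59 on the WT-titled array (0.29, 1.22-fold), and its second set read 8.27 and 8.18 (0.090). Psmc3ip was thus the largest difference in the group, at a gene outside the proteasome.

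Probe sets gave a measure of technical scatter. Over 4906 genes with several expressed sets, the median disagreement between the differences of the brightest pair of sets was 0.084, with 0.31 as its 95th percentile. Over 18 of the proteasome genes the median was 0.068 and the highest 0.20. Except for Psmc4, Psmd2, Psma5 and Psmc3ip among the higher genes and Psmd9 among the lower ones, all expressed proteasome genes differed by less than 0.084. The medians of the sub-complexes were 0.022 (alpha), -0.040 (beta), 0.014 (base) and 0.016 (lid). That scatter is of single genes, so it gives no limit for a median over several genes. The base and lid medians turned to -0.014 and -0.0083 with the loess curve, and the alpha median to -0.0041 with plain _at probe sets (those without a suffix for shared transcripts), while the beta median stayed between -0.053 and -0.035. Psmb2, Psmb5, Psmb6 and Psmb7 have a single probe set, so the mean of sets could not change their values. The scatter between probe sets holds no spread between animals or cultures.

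The wider values came from dim sets. The genes have 76 probe sets in all. The 48 with a mean level of 10 or more ran from -0.099 to 0.25 with an SD of 0.061, and 46 lay within 0.1 of 0. The 19 expressed sets below level 10 ran from -0.21 to 0.66 with an SD of 0.21, and 8 lay within 0.1. In this range a set of Psma6 read 7.54 on the KO-titled and 6.88 on the WT-titled array (0.66), while the 2 sets of that gene above 13 differed by 0.055 and 0.060. Likewise a set of Psma1 read 7.92 and 7.56 (0.36), against -0.032 at the bright set. A set of Psmd13 read 7.21 and 6.92 (0.29), against 0.012. A further 9 sets lay below the level for expression, from a set of Psmd11 at -0.38 to a set of Psma1 at 0.37. What the dim sets detect was not determined here.

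**Figure D3:**
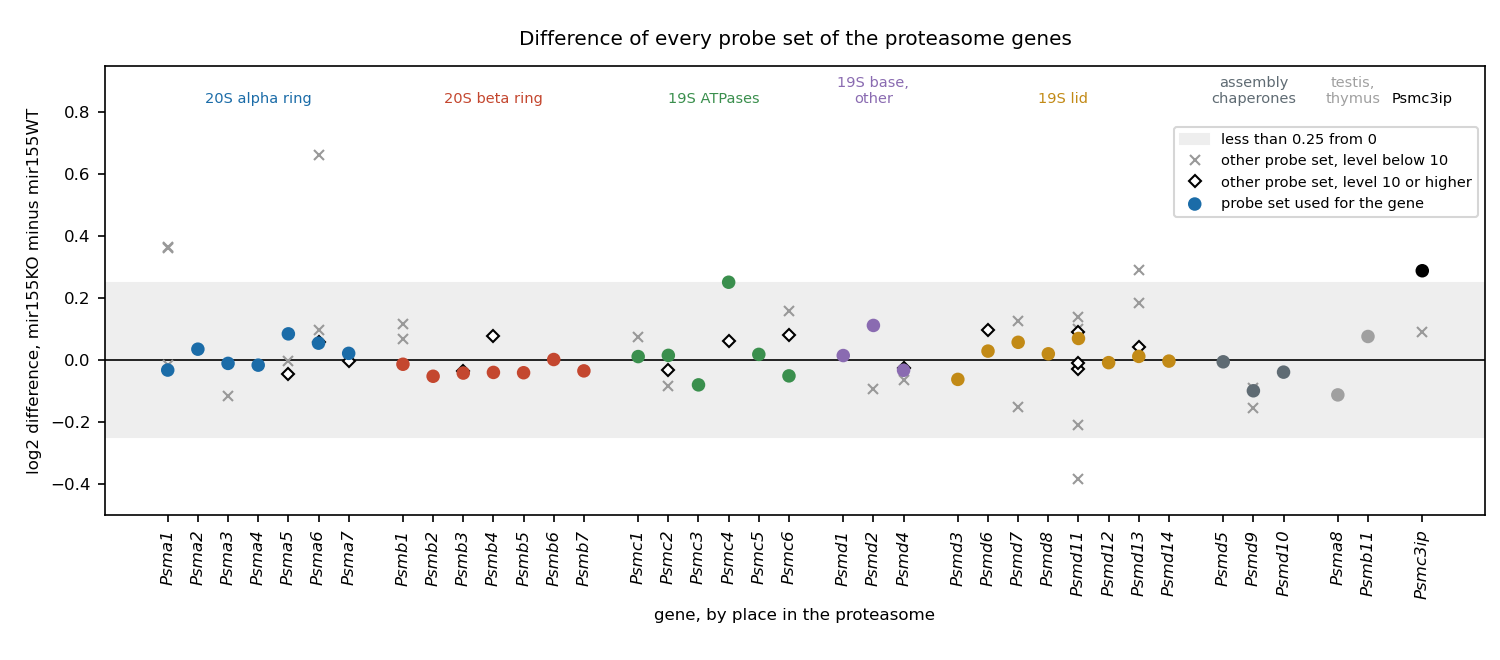
Log2 difference (KO-titled minus WT-titled) of all 76 probe sets of the 37 genes, filled where the set stands for its gene, open diamonds for other sets at level 10 or more, crosses for other sets below 10, with the grey band marking less than 0.25 from 0. Of the filled points only Psmc4 (0.25) and Psmc3ip (0.29) touch or leave the band, and the widest crosses belong to Psma6 (0.66), Psmd11 (-0.38) and Psma1 (0.37 and 0.36).

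The inducible subunits, which replace the catalytic beta subunits in the immunoproteasome, were strong on both arrays and slightly lower on the KO-titled one. Psmb9 read 13.49 and 13.62 (-0.14), Psmb10 read 12.18 and 12.25 (-0.068), and Psmb8 read 13.83 and 13.84 (-0.0083, but 0.0063 with the mean of its sets). Among all 10717 expressed genes 4512 were lower. Against the constitutive subunit at the same site, Psmb9 minus Psmb6 came to -0.14, Psmb10 minus Psmb7 to -0.033 and Psmb8 minus Psmb5 to 0.033. The beta1 value exceeds the median scatter between probe sets (0.084) but not its 95th percentile (0.31), and the other values are below both.

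Genes for activators and an inhibitor of the core had small differences. Psme1, for the PA28 alpha subunit, read 14.01 on the KO-titled and 14.12 on the WT-titled array (-0.11). Psme3, for the nuclear PA28 gamma, read 11.05 and 10.87 (0.17), and its second expressed set read 10.83 and 10.53 (0.30), so both were higher. Psme4, for PA200, differed by -0.092, Psmf1, for the inhibitor PI31, by -0.089, and Ecpas, which tethers cap to core, by -0.088. The other expressed sets ran from -0.22 to -0.036 for Psmf1, from -0.099 to 0.0072 for Psme4 and from -0.0065 to 0.063 for Ecpas, so the direction of Psme4 and Ecpas depended on the set. The median of the 5 genes, -0.089, was -0.025 with the mean of probe sets. The partner of Psme1 was read only by a set shared by Psme2 and Psme2b, with 14.46 and 14.47 (-0.017).

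Assembly and cap accessory genes were read as well. Psmg1, a chaperone of the alpha ring, read 10.84 on the KO-titled and 10.63 on the WT-titled array (0.21), the widest of its list. Psmg2, its partner, differed by 0.096, Psmg4 by 0.037, Psmg3 by -0.0012, and Pomp, the maturation factor of the core, by -0.059. The median of the 5 assembly genes, 0.037, was 0.13 with the mean of probe sets. Of the other cap components, Uchl5, a deubiquitinase, differed by 0.078, Sem1, a small lid subunit, by 0.015, and Usp14, a deubiquitinase that trims chains, by -0.070. None of these 8 genes reached 0.25.

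The widest difference among the pathway lists was in a regulator of gene expression. Nfe2l2, which encodes NRF2, the stress factor that uses the antioxidant response element, read 10.70 on the KO-titled and 11.39 on the WT-titled array (-0.69, at its brightest set), while a dimmer set read 8.96 and 8.83 (0.13). Its direction therefore depended on the probe set. Nfe2l1, for NRF1, which is known to restore proteasome genes when the protease is inhibited, read 12.58 and 12.64 (-0.065), and Ngly1, which processes NRF1, differed by 0.036. The 5 genes whose promoters hold the element's core differed by -0.041 (Psmb5), 0.0017 (Psmb6), -0.051 (Psmc6), -0.0084 (Psmd12) and -0.099 (Psmd9). None passed 0.1, but 32 of all 35 expressed proteasome genes lay within that limit. Psmd9 was at -0.12 with the mean of sets, -0.13 with quantile normalization and -0.15 with loess, and Psmc6 at 0.16 with plain sets. An effect of NRF2 on these genes was not tested. Zfand5, for a ubiquitin-binding activator of degradation, differed by -0.16 and Zfand2a by -0.060, whereas Akirin2, for the nuclear import factor of proteasomes (0.0083), and Txnl1, a cap-bound thioredoxin (-0.0052), lay at 0. Of 7 measured ubiquitin and shuttle genes, 3 were higher and 4 lower, from Rad23b (-0.13) to Ubqln4 (0.28), both of which encode shuttle proteins.

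Other large complexes had higher median differences than the proteasome. The COP9 signalosome and eIF3 share the lid's PCI and MPN architecture. The signalosome genes had a median of 0.062 over 9, with 6 higher, from Cops3 (-0.094) to Cops7b (0.17). Their median fell to 0.028 with quantile normalization and 0.017 with loess, each with 5 higher, and to 0.034 with plain sets. Of all expressed genes 56.9% were higher. The eIF3 genes had a median of 0.094 over 11, with 9 higher, from Eif3k (-0.034) to Eif3i (0.23). The chaperonin CCT, which folds actin and tubulin, had a median of 0.099 over 8, from Tcp1 (0.020) to Cct8 (0.13), with 8 higher, or 7 with quantile normalization or the mean of probe sets. The proteasome subunits, with a median of 0.0017 over 31 and 16 higher, thus lay below these lists, a difference that could not be tested with 1 array a group.

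Genes of division and growth stood further up. G2/M genes had a median of 0.30 over 12, with 12 higher, from Cdc20 (0.15) to Kif11 (0.66). MYC targets had a median of 0.25 over 12, with 11 higher, from Ldha (-0.051) to Nolc1 (0.41). Of all expressed genes 56.9% were higher. The ring, base and lid genes ranged from -0.080 to 0.11 apart from Psmc4. The G2/M genes had mean levels from 7.32 to 10.78, all below the 10.81 to 14.05 of these subunits. The levels of the MYC targets ran from 9.50 to 14.32 and overlap those of the subunits. Nolc1, the highest difference among the MYC targets, had a mean level of 11.56. Over all genes the SD of the differences was 0.22 between levels 8 and 9, 0.18 between 12 and 13 and 0.11 between 13 and 14.

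**Figure D4:**
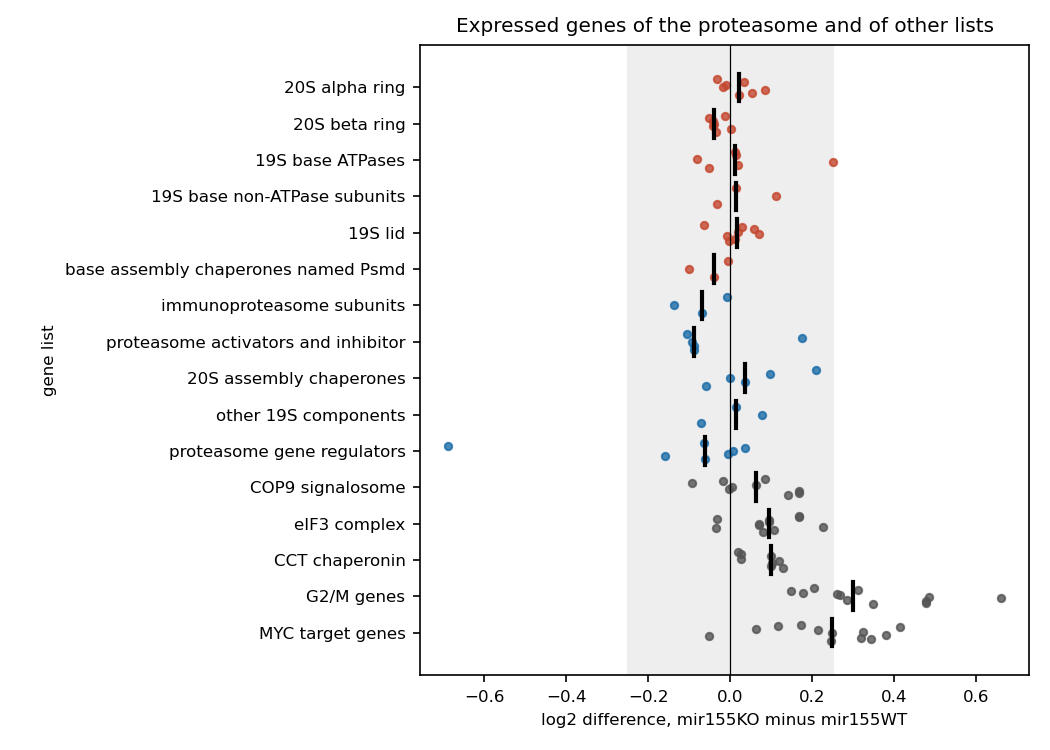
Log2 difference (KO-titled minus WT-titled) of the expressed genes of 16 lists, 1 point a gene and a bar at the median, with the grey band marking less than 0.25 from 0. The proteasome lists (red) centre between -0.040 and 0.022, the eIF3 and CCT lists near 0.1, and G2/M genes at 0.30, while Nfe2l2 (-0.69) stands alone on the left.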

How the data were processed

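RNA was extracted with Trizol and labelled as biotin cRNA with the Affymetrix 3′ IVT Express kit, per the labels' protocols. The deposited values are log2 intensities of 45101 probe sets on 2 arrays, a unit read from their range (3.09 to 15.4). How the authors summarised and normalized them is "not given in the sources used here". Sorted, the values of both arrays lie within 0.063 of each other, so a difference in total RNA would not be visible. Precision is limited by the number of arrays. Probe sets were named from the platform annotation, 34945 with a single gene. All 37 proteasome genes matched RefSeq (GRCm38.p6) by Entrez number, with 37 symbols unchanged. Each gene took its probe set with the highest mean of both arrays. Groups follow the titles, and 1 array a group allows no test, p-value or left-out array. The genes and lists were chosen with earlier results of these data known, and the promoter motifs, the limit of 0.1 and the background at or above 10.81 after the values were seen. Every proteasome gene is named, as is every measured gene of the immunoproteasome, activator, assembly, cap and regulator lists, and the highest and lowest of other lists. Differences were checked on simulated data. Alternatives were a mean over all sets of a gene, plain _at sets, quantile normalization, a loess curve (span 0.3), no filter, a filter at the 75th percentile (8.84), and the ring, base and lid subunits alone. Computations ran in Python 3.11.15 with NumPy 2.4.6 and pandas 2.3.3, the loess curve in statsmodels 0.14.6 and the plots in matplotlib 3.10.9.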

Additional observations from a re-analysis of the deposited data

How the results depend on the processing

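The median difference of the proteasome genes lay between -0.024 (loess) and 0.0087 (mean of probe sets) under the 7 alternatives. The median of all genes used moved from 0.026 to -0.0023 with quantile normalization and to -0.00030 with loess. No gene was lower by 0.25 and none differed by 0.5 under any of these alternatives. The count higher by 0.25, 2 as reported (Psmc4 and Psmc3ip), was 0 with the mean of probe sets, quantile normalization or loess, and 1 with plain sets, the 75th percentile filter or the ring, base and lid subunits alone. The count of higher genes, 17 as reported, was 11 with loess. Values of single genes were held against 0.084, the scatter between probe sets of a gene. With quantile normalization and with loess, all 35 genes moved by less. With the mean of sets 8 of 35 moved by that much or more, and with plain sets 5 of 30. A gene with a single set cannot move with the mean of sets, nor a gene whose set is already plain with plain sets. Changing the filter or keeping only the subunits cannot change a gene's value. No paired analysis was possible because each group has 1 array. Dim signal limits the precision, since the proteasome probe sets below level 10 had an SD of 0.21 and those at or above it 0.061.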
